A study of Mus musculus with 8 samples.

Results

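The genes examined here mark T cells and natural killer (NK) cells or carry out their killing. They were the CD3 chain genes Cd3e and Cd3d of the T cell receptor complex, the co-receptors Cd4 and Cd8a, the granule genes Gzma, Gzmb, Prf1 and Nkg7, and the NK cell receptors Klrb1c and Ncr1. They were chosen by symbol, and all 10 were found among the 24584 genes of the deposited tables. Lung RNA was sequenced from 2 groups of 4 samples. Male ICR mice, an outbred stock, aged 6 to 8 weeks and given as widetype in the labels, received an intraperitoneal injection of LPS from Escherichia coli O111:B4 at 5 mg/kg (LPS group), or tangeretin (Tan), a citrus flavone, at a dose of 50 mg/kg given 30 min ahead of the same LPS dose (LPS + Tan group). Lungs were taken 12 h after LPS. Every animal had been given LPS, and neither an untreated group nor tangeretin without LPS was analysed here, so the values describe the lung after LPS and cannot show what LPS itself did to these genes. The p-values measure the spread between these samples, since the labels do not tie each sample to an animal, and a lung in the text stands for a lung sample.

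Killer lymphocytes store perforin and granzymes in granules. When a CD8 T cell or an NK cell meets a target cell, the granules are released, perforin opens the target's membrane, and the granzymes that enter start its death. T cells recognise the target through the T cell receptor, whose signal is carried by the CD3 chains, whereas NK cells use germline-encoded receptors such as NKp46, the product of Ncr1. In the lung both cell types occur among the tissue-resident and circulating leukocytes, and IL-12, IL-15 and IL-18 are the classical cytokines that activate them.

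The promoters of the genes are shown because several of the genes varied together across the samples, as described further on. RefSeq windows of GRCm38.p6 run from 250 bases before each gene's start to 50 bases after it, and 9 of the 10 genes had such a window, all except Cd4. The submitters' processing notes name the build as GRCm38 and mm10, without a patch release. In all, 5 short motifs were searched on both strands after the expression values had been seen, and each letter string can overlap the others. TGTGGT, a core bound by RUNX factors, was in 6 of the 9 windows, those of Klrb1c, Ncr1, Nkg7, Prf1, Gzma and Gzmb, and in 16.8% of all 32851 windows. The 54 bases around its first match are printed 5′ to 3′ on the gene's strand, with the match or its reverse complement ACCACA in capitals.
Gzmb, chr14:56262398-56262451, minus strand: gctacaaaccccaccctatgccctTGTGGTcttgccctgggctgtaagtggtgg
Prf1, chr10:61297682-61297735, plus strand: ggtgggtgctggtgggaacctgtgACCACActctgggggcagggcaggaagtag
Gzma, chr13:113101002-113101055, minus strand: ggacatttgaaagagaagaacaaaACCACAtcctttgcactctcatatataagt
Nkg7, chr7:43437031-43437084, plus strand: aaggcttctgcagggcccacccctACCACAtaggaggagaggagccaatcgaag
Ncr1, chr7:4337515-4337568, plus strand: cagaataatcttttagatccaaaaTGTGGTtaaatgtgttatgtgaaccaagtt
Klrb1c, chr6:128788701-128788754, minus strand: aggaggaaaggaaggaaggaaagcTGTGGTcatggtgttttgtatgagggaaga

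These matches lay 50 bases (Gzma) to 176 bases (Ncr1) before the start behind each window, which for Prf1, Cd3e and Cd3d lies inside the range given for the gene further on and for the other windowed genes at its edge, and the windows of Ncr1 and Gzmb held a second match each. The windows of Cd3d, Cd3e and Cd8a held none. AGGTGT, a T-box core, was in the windows of Nkg7, Cd3d, Cd3e, Prf1 and Gzma and in 13.7% of all windows. AGGAAG, an ETS core, was in those of Klrb1c, Nkg7, Cd3d, Cd3e and Prf1 and in 35.4% of all. TGACGTCA, the cAMP response element, and TATAAA were in 0 of the 9 windows, against 1.79% and 13.6% of all. A match is a description of the letters and not a measured binding site.

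Tangeretin was followed by no detectable shift of the T cell or killer genes. None of the 10 genes passed an unadjusted p of 0.05 in edgeR's quasi-likelihood test, against 5.12% of the 15706 genes tested, and none passed by DESeq2, against 6.16% of the 15691 of those genes to which DESeq2 gave a p. The levels of the LPS and LPS + Tan groups overlapped for all 10 genes, whereas 2.73% of all genes had groups without overlap. No gene of the 10 met the threshold of the study for a differentially expressed gene, p below 0.05 with an absolute log2 fold change above 1, which 0.649% of the genes met, and the share of all genes with a Benjamini-Hochberg adjusted p below 0.05 was 0%, with the lowest adjusted p among the 10 at 0.958 in edgeR. DESeq2 called 34 genes at that adjusted threshold, and 804 genes had an unadjusted p below 0.05 in edgeR. The fitted log2 fold change of LPS + Tan against LPS was above 0 for 6 genes and below 0 for 4, with a median of 0.07 against 0.01 over all genes tested. Total counts ranged from 38895654 to 39931970 per sample. The lungs held marker RNA of epithelium and endothelium at a summed 19364 to 29125 CPM in the 8 samples, CPM being a gene's count relative to the scaled library total.

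**Figure D1:**
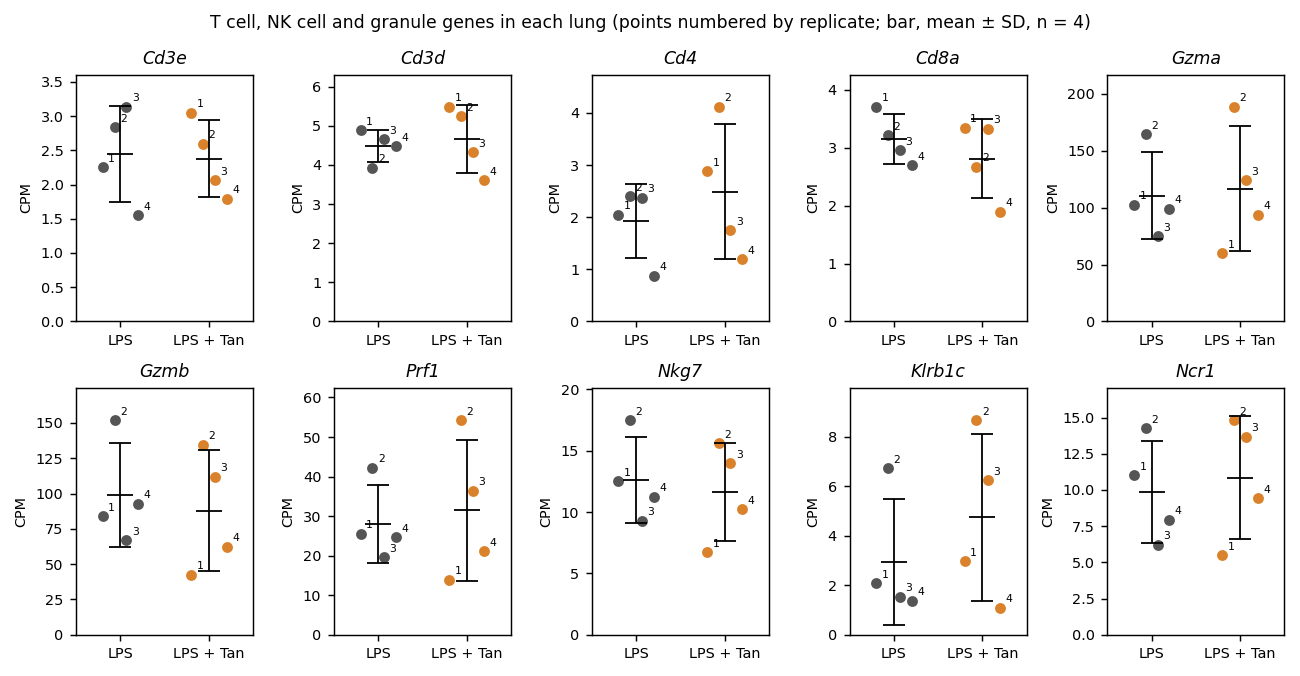
CPM (y axis, counts relative to the TMM-scaled library total) of the 10 genes in each lung sample of the LPS and LPS + Tan groups, with each point numbered by its replicate and a bar for the mean ± SD (n = 4). The points of both groups overlap in each panel, and replicate 2 of each group is the highest of its group for Gzma, Gzmb, Prf1, Nkg7, Klrb1c and Ncr1.

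Cd3e and Cd3d, which encode the epsilon and delta chains of the CD3 complex, lie next to each other on chromosome 9, at 44998735 to 45009663 and 44981769 to 44987052. Cd3e measured 2.25, 2.84, 3.14 and 1.56 CPM in LPS samples 1 to 4 and 3.05, 2.59, 2.07 and 1.79 CPM in LPS + Tan samples 1 to 4. The lowest sample of each group was replicate 4, and the group ranges lay almost on top of each other. The log2 fold change of Cd3e was -0.04 ± 0.26 (SE, n = 4 per group, edgeR adjusted p = 0.998), with a 95% interval of -0.63 to 0.54. Cd3d measured 4.88, 3.93, 4.65 and 4.48 CPM in the LPS samples and 5.49, 5.24, 4.33 and 3.61 CPM in the LPS + Tan samples. It had the narrowest interval of the 10 genes, with a log2 fold change of 0.06 ± 0.17 (SE, edgeR adjusted p = 0.988) and bounds of -0.32 and 0.43, so that a doubling or a halving of Cd3d lies outside it. The direction of both genes turned when single samples were left out.

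CD4 and CD8 bind the MHC molecules that present antigen and divide T cells into helper and killer classes. Cd4, on chromosome 6 at 124864693 to 124888247, measured 2.05, 2.41, 2.38 and 0.881 CPM in the LPS samples and 2.88, 4.12, 1.75 and 1.20 CPM in the LPS + Tan samples. Here 2 LPS + Tan samples were above every LPS sample, and replicate 4 was the lowest in each group. The mean was 1.93 ± 0.717 CPM with LPS and 2.49 ± 1.29 CPM with LPS + Tan (SD, n = 4), a log2 fold change of 0.37 ± 0.42 (SE) with an unadjusted edgeR p of 0.399 (adjusted p = 0.967). The interval of Cd4, -0.56 to 1.29, does not exclude a doubling. Without LPS + Tan 2 the log2 fold change of Cd4 was 0.011, without LPS 4 it was 0.13, and without LPS + Tan 4 it was 0.60. Cd4 is also made by some myeloid cells, so in whole lung it does not count helper T cells alone. Cd8a, on the same chromosome at 71373427 to 71379171, measured 3.71, 3.22, 2.95 and 2.70 CPM in the LPS samples and 3.35, 2.67, 3.33 and 1.90 CPM in the LPS + Tan samples. Here the lowest value was LPS + Tan 4 and the highest LPS 1, with a log2 fold change of -0.16 ± 0.22 (SE, edgeR adjusted p = 0.978), which lay between -0.26 (without LPS + Tan 1) and -0.013 (without LPS + Tan 4) when each sample was left out. In bulk tissue, fewer cells of a type and less RNA per cell cannot be told apart, for Cd8a as for every gene here.

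The granzymes were by far the most abundant of the genes. Gzma, the trypsin-like granzyme A, measured 103, 165, 74.7 and 99.2 CPM in the LPS samples and 59.9, 189, 124 and 93.7 CPM in the LPS + Tan samples. Both the highest and the lowest lung were LPS + Tan lungs, 3.15-fold apart, so that the spread within the group exceeded the difference between group means. The log2 fold change of Gzma was 0.08 ± 0.33 (SE, edgeR adjusted p = 0.993) with an interval of -0.66 to 0.82. The gene, on chromosome 13 at 113093824 to 113100981, overlaps Cdc20b, and because the strand setting of the counting is not given in the sources used here, its reads cannot be fully told apart from those of Cdc20b. Gzmb, the aspartate-specific granzyme B at chromosome 14, 56258836 to 56262334, measured 84.1, 152, 66.8 and 92.9 CPM in the LPS samples and 42.5, 135, 112 and 62.4 CPM in the LPS + Tan samples. Again replicate 2 was the highest of each group, and LPS + Tan 1 was the lowest of all. The log2 fold change of Gzmb was -0.17 ± 0.36 (SE, edgeR adjusted p = 0.982), with an interval of -0.96 to 0.62.

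Prf1, the pore-forming perforin at chromosome 10, 61297751 to 61304684, measured 25.6, 42.3, 19.7 and 24.6 CPM in the LPS samples and 13.9, 54.3, 36.4 and 21.1 CPM in the LPS + Tan samples. The order of the 8 lungs was that of Gzma, and the log2 fold change was 0.17 ± 0.38 (SE, edgeR adjusted p = 0.985). The interval of Prf1, -0.68 to 1.02, does not exclude a doubling. Nkg7, a granule membrane protein that helps killer cells release their granules, lies on chromosome 7 at 43437138 to 43438246. It measured 12.5, 17.5, 9.30 and 11.3 CPM in the LPS samples and 6.72, 15.6, 13.98 and 10.2 CPM in the LPS + Tan samples. With a 2.61-fold range over the 8 lungs it varied less than Gzma, Gzmb or Prf1, and its log2 fold change was -0.12 ± 0.27 (SE, edgeR adjusted p = 0.985). Leaving out LPS 2 or LPS + Tan 2 moved the fold changes of Gzma, Gzmb, Prf1 and Nkg7 to opposite sides of 0. Without LPS 2 they were 0.34, 0.11, 0.43 and 0.07, and without LPS + Tan 2 they were -0.25, -0.45, -0.23 and -0.29.

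Ncr1, which encodes the activating receptor NKp46 and is nearly restricted to NK cells and related innate lymphoid cells, lies on chromosome 7 at 4337715 to 4345184. It measured 10.998, 14.3, 6.22 and 7.93 CPM in the LPS samples and 5.51, 14.8, 13.7 and 9.44 CPM in the LPS + Tan samples. The highest lungs were LPS + Tan 2 and LPS 2 and the lowest LPS + Tan 1, as for the granule genes. For Ncr1 the log2 fold change was 0.14 ± 0.33 (SE, edgeR adjusted p = 0.985), with an interval of -0.59 to 0.86.

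Klrb1c, which encodes the NK1.1 antigen in mouse strains that carry it, had the widest spread of the 10 genes. On chromosome 6 at 128778485 to 128788641, it measured 2.07, 6.74, 1.54 and 1.37 CPM in the LPS samples and 2.98, 8.67, 6.25 and 1.09 CPM in the LPS + Tan samples. The lungs fell into a low cluster of 5 and a high cluster of 3 (LPS 2, LPS + Tan 2 and LPS + Tan 3), with a 7.94-fold range. Its log2 fold change was the largest of the 10, 0.69 ± 0.65 (SE) with an unadjusted edgeR p of 0.309 (adjusted p = 0.958), with an interval of -0.75 to 2.14. The value moved with single high samples. Without LPS 2, the high sample of its group, the log2 fold change was 1.51 with an unadjusted p of 0.0316 and an edgeR adjusted p of 0.998. Without LPS + Tan 2 it was 0.23 with an unadjusted edgeR p of 0.734, and without LPS 4 it was 0.46 with an unadjusted edgeR p of 0.520. Klrb1c belongs to a family of similar neighbouring genes, so the counting could have split its reads among them, and its value is uncertain for that reason. Klrb1b measured 1.56, 3.67, 2.59 and 2.57 CPM in the LPS samples and 2.44, 5.29, 2.89 and 2.03 CPM in the LPS + Tan samples, while Klrb1a stayed between 0.27 and 0.90 CPM in all 8 lungs.

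**Figure D2:**
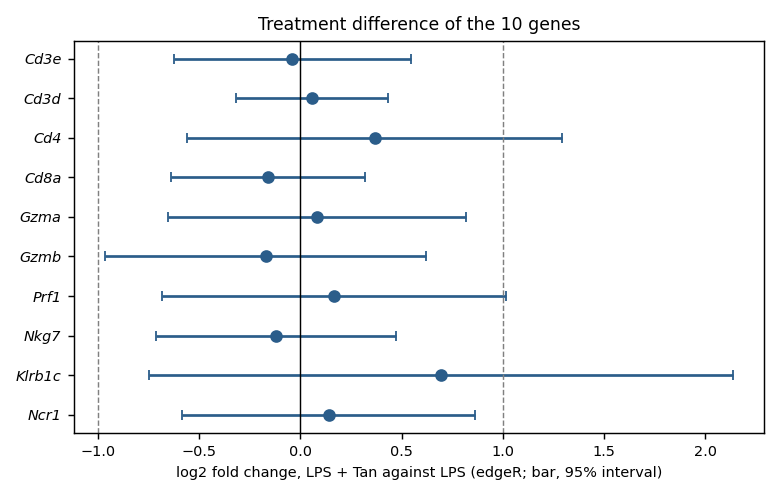
Fitted log2 fold change of LPS + Tan against LPS (x axis) for each of the 10 genes (y axis), as a point with its 95% interval from edgeR (n = 4 per group), with dashed lines at the threshold of 1 in either direction. Every interval crosses 0, Cd3d has the narrowest interval (-0.32 to 0.43) and Klrb1c the widest (-0.75 to 2.14).

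Per length, the ranking of the genes was led by the granzymes. In the FPKM values deposited by the authors (fragments scaled by gene length and by the depth of the sample) Gzma averaged 124 with LPS and 134 with LPS + Tan, and Gzmb 64.8 and 59.1. Nkg7 followed at 15.4 and 14.5 FPKM, Prf1 at 10.4 and 11.97, and Ncr1 at 6.54 and 7.39. The T cell genes were lower, with mean FPKM of 2.92 and 3.14 for Cd3d, 1.59 in each group for Cd3e, 0.990 and 0.917 for Cd8a, and 0.547 and 0.728 for Cd4. Klrb1c, at 1.11 and 1.84 FPKM, lay among them. Within each group the sample ranges of Gzma and Gzmb overlapped, as did those of Nkg7 and Prf1 and those of Prf1 and Ncr1. In contrast, the lowest Gzmb value (42.3 with LPS, 29.0 with LPS + Tan) was above the highest Nkg7 value (21.7 and 19.3), and the lowest Ncr1 value (3.99 and 3.804) was above the highest of Cd3d (3.18 and 3.74).

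The killer genes Gzma, Gzmb, Prf1, Nkg7 and Ncr1 moved together from lung to lung. They placed LPS 2 and LPS + Tan 2 at the top in either order, LPS + Tan 3 next and LPS + Tan 1 last, in 5 of 5 genes. On the log2 CPM scale their mean deviation from the gene's own average was 0.64 in LPS 2, 0.69 in LPS + Tan 2 and 0.35 in LPS + Tan 3, against -0.89 in LPS + Tan 1 and -0.47 in LPS 3. All 10 pairs of these 5 genes correlated over the 8 samples, with Pearson's r from 0.881 (Gzmb with Ncr1) to 0.987 (Gzma with Prf1) and Spearman's rho from 0.857 to 1. The exact permutation p over all 40320 orders, adjusted over the 36 pairs computed, was 0.000893 to 0.0155 for r and 0.00179 to 0.0386 for rho. Without the 2 samples farthest from the median of the first gene of a pair r was 0.771 to 0.982, and after centring each group on its own mean it was 0.931 to 0.987. The labels give no batch in which the relation could be repeated. Klrb1c was left out of the pairs because its samples formed separate clusters, although the same 3 lungs made up its high cluster.

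**Figure D3:**
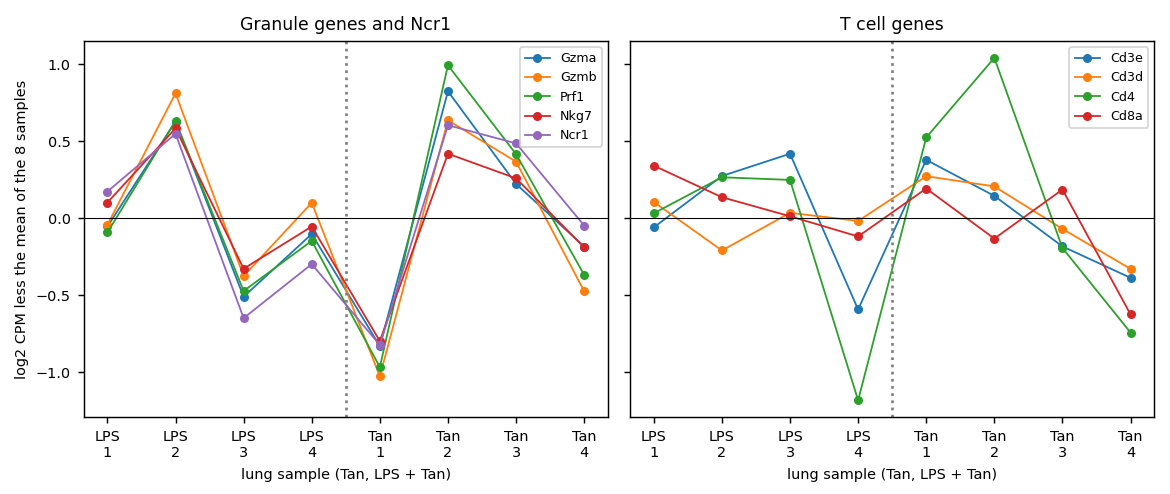
Log2 CPM of each gene less its mean over the 8 samples (y axis) in LPS and LPS + Tan samples 1 to 4 (x axis), with a line per gene, for the granule genes and Ncr1 (left) and the T cell genes (right). On the left all lines peak at LPS 2 and LPS + Tan 2 and reach their lowest point at LPS + Tan 1, while on the right the lines of Cd3e, Cd3d, Cd4 and Cd8a are below 0 at replicate 4 of each group.

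No T cell gene had a detectable correlation with a killer gene. LPS + Tan 1, the lung with the least killer RNA, was above the gene's average for 4 of 4 T cell genes, and LPS 4 and LPS + Tan 4 were above it for 0 of 4. Across the 20 pairs of a T cell gene with a killer gene, r ran from -0.332 to 0.299, rho from -0.286 to 0.238, and the adjusted exact permutation p of r from 0.896 to 0.939. With 8 samples these values leave room for moderate relations in either direction. Without the 2 samples farthest from the median of the first gene of a pair, r of these 20 pairs ran from -0.651 to 0.023. After centring each group on its own mean it ran from -0.319 to 0.300. Among the T cell genes, 1 of 6 pairs passed the adjusted threshold for r, Cd3e with Cd4 (r = 0.848, exact permutation p adjusted 0.0244, rho = 0.786 with an adjusted p of 0.0914), with an r of 0.882 after centring each group on its own mean. Without its 2 farthest samples r was 0.476, so the relation rests in part on those samples. Replicate 4 of each group was low for both.

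Markers of other cell types were set beside this pattern. The 7 neutrophil markers summed to 4677, 4031, 5326 and 4833 CPM in the LPS samples and 5263, 3544, 4983 and 5095 CPM in the LPS + Tan samples. The lowest sums were those of LPS + Tan 2 and LPS 2, the lungs with the most killer RNA, and such a sum is weighted to the most abundant markers. The median r of the 7 neutrophil markers with Ncr1 was -0.66, within a range of -0.79 to 0.36. For the marker lists of other cell types the median ran from -0.40 (pan-leukocyte) to 0.69 (plasmacytoid dendritic cells, 1 gene). The part of neutrophil RNA in the killer pattern was not tested. The pan-leukocyte gene Ptprc (CD45) was highest in LPS + Tan 1, at 363 CPM, where the killer genes were lowest, and lay between 243 and 311 CPM in the others. Its log2 fold change was 0.10 ± 0.13 (SE, edgeR adjusted p = 0.978).

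The genes whose log2 CPM followed a killer gene most closely were also read from the whole table, over 13736 genes with a mean of at least 1 CPM and the same 8 samples. For Ncr1 they were Ap4m1 (r = 0.971), Tbx21 (r = 0.955) and Nkg7 (r = 0.943), with Gzma and Prf1 at ranks 4 and 5. Tbx21 encodes T-bet, the T-box factor of NK cells and type 1 T cells, and measured 4.50, 4.74, 2.72 and 3.60 CPM in the LPS samples and 2.29, 4.53, 4.79 and 3.35 CPM in the LPS + Tan samples. For Gzmb they were Nkg7 (r = 0.976), Shpk (r = 0.959) and Il2rb (r = 0.956), with Prf1 at rank 4. Il2rb, the beta chain of the IL-2 and IL-15 receptors, measured 31.3, 41.6, 30.3 and 34.4 CPM in the LPS samples and 20.7, 49.6, 42.1 and 25.2 CPM in the LPS + Tan samples. For Cd3e they were Prmt1 (r = 0.974), Jaml (r = 0.961) and Ppat (r = 0.951), while Cd4 came at rank 60 and Cd3d at rank 2062. These coefficients are descriptions over samples that share libraries, without a p.

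Other NK cell genes were read from a list of 28 receptors and lineage genes, of which 25 were tested. None passed p below 0.05 in edgeR and 1, Cd244a, did in DESeq2, where 6.16% of all genes did, with 16 log2 fold changes above 0, 9 below and a median of 0.02. Of the 16 with a mean of at least 1 CPM, 6 had an r with Ncr1 above 0.7 (Tbx21, Klri2, Klrg1, Klrd1, Eomes and Klrk1), a share of 37.5% against 1.72% of all genes at that level. Over those 16 genes r ran from -0.60 to 0.95, with a median of 0.41. The listed genes summed to 237 to 270 CPM with LPS and 227 to 292 CPM with LPS + Tan. That sum, weighted to the most abundant genes, was highest in LPS + Tan 1 and lowest in LPS + Tan 2. Klrd1, which encodes CD94, measured 2.05, 4.43, 2.01 and 1.92 CPM in the LPS samples and 2.02, 3.89, 3.5004 and 1.90 CPM in the LPS + Tan samples, with the same 3 lungs on top as Klrb1c. Klrk1, the NKG2D gene, ran from 4.11 CPM in LPS + Tan 1 to 9.45 CPM in LPS 2. The lowest p of the list was that of Cd244a, the receptor 2B4, at 2.35, 3.12, 4.55 and 2.98 CPM with LPS and 7.43, 9.16, 4.84 and 2.05 CPM with LPS + Tan. Here 3 LPS + Tan lungs were above the highest LPS lung and the remaining one below the lowest, and the log2 fold change was 0.85 ± 0.40 (SE), with an unadjusted edgeR p of 0.0564 (adjusted p = 0.924). Without LPS + Tan 4 it was 1.14, with an unadjusted p of 0.00261 and an edgeR adjusted p of 0.257, and without LPS + Tan 2 it was 0.56, with an unadjusted p of 0.183 and an edgeR adjusted p of 0.677. Klrb1f, at 0.553 ± 0.154 CPM with LPS and 0.833 ± 0.120 CPM with LPS + Tan (SD, n = 4), was the only gene of the list whose groups did not overlap, 1 of 25 against 2.73% of all genes, with a log2 fold change of 0.59 ± 0.30 (SE, edgeR adjusted p = 0.924) on 13 to 39 counts per sample. Klrg1 and Klra4, with log2 fold changes of 0.64 and 0.79, followed by p (edgeR adjusted p = 0.930 and 0.931). Without LPS + Tan 2 these were 0.30 and 0.37, and Klrg1 was 1.01 without LPS 2, with an unadjusted p of 0.0348 and an edgeR adjusted p of 0.998. Members of the Klra and Klrb1 families are near copies, so their separate values are uncertain.

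The list of T cell receptor and T lineage genes held 28 tested genes, and 1 passed p below 0.05, a share no higher than the 5.12% of all genes. Of its 33 entries 29 were among the genes counted, and the constant-region genes of the receptor's alpha, beta and delta chains were not. Icos, a co-stimulatory receptor of activated and helper T cells, measured 1.61, 1.19, 1.72 and 1.32 CPM in the LPS samples and 2.19, 3.79, 1.63 and 1.87 CPM in the LPS + Tan samples. Of the LPS + Tan lungs 3 were above all LPS lungs, and LPS + Tan 3 lay within their range. Icos had a log2 fold change of 0.70 ± 0.29 (SE) with an unadjusted edgeR p of 0.0387 (adjusted p = 0.924), and without LPS + Tan 2 it was 0.37 with an unadjusted p of 0.153 and an edgeR adjusted p of 0.653. Cd27, Cd2 and Cd3g, next by p, had log2 fold changes of 0.62, 0.51 and 0.35 (edgeR adjusted p = 0.924 for each). Under other settings Cd2 had an unadjusted p of 0.0333 with the replicate block, 0.0458 with limma-voom and 0.0442 and 0.0476 on the log2(FPKM + 1) and log2(FPKM + 0.1) scales, and Cd27 had an unadjusted p of 0.0462 with DESeq2 and of 0.0391 and 0.0398 on those FPKM scales. Cd3g had an unadjusted p of 0.0234 and 0.0272 on the FPKM scales, and the lowest adjusted p of these genes over these settings was 0.791. Cd3g, the CD3 gamma chain, measured 3.22, 4.002, 3.08 and 2.64 CPM in the LPS samples and 4.58, 4.48, 3.55 and 3.87 CPM in the LPS + Tan samples, a larger difference than that of Cd3e or Cd3d but within overlapping ranges. The list had 17 log2 fold changes above 0 and 11 below, with a median of 0.11. The listed genes summed to 192 to 213 CPM with LPS and 180 to 248 CPM with LPS + Tan.

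Beyond the members, 15 genes of granules and their release were tested, and 1, Gzmk, had p below 0.05, which is near the 5.12% of all genes. Gzmk, a granzyme of memory T cells, measured 0.946, 0.507, 0.444 and 0.415 CPM in the LPS samples and 1.53, 1.27, 1.26 and 0.910 CPM in the LPS + Tan samples. LPS 1 and LPS + Tan 4 were all that overlapped. Its log2 fold change was 1.10 ± 0.33 (SE) with an unadjusted edgeR p of 0.00786 (adjusted p = 0.924), on 16 to 62 counts per sample. DESeq2 gave Gzmk an unadjusted p of 0.00176 and an adjusted p of 0.233. Gzmk met the threshold of the study for a differentially expressed gene, 1 of the 15 genes of the list against 0.649% of all genes. The list had 7 log2 fold changes above 0 and 8 below, with a median of -0.01. Of its 13 genes with a mean of at least 1 CPM, 3 had an r with Ncr1 above 0.7, against 1.72% of all genes at that level. Over those 13 genes r ran from -0.60 to 0.79, with a median of -0.13, so the list as a whole did not share the pattern of the killer genes. Srgn, Serpinb9 and Ctsw, next by p, had log2 fold changes of -0.20, -0.14 and 0.19 (edgeR adjusted p = 0.936, 0.966 and 0.978). Srgn, the proteoglycan core of granules, was at 579 ± 80.5 CPM with LPS and 504 ± 88.6 CPM with LPS + Tan (SD, n = 4), and it is also made by myeloid cells.

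**Figure D4:**
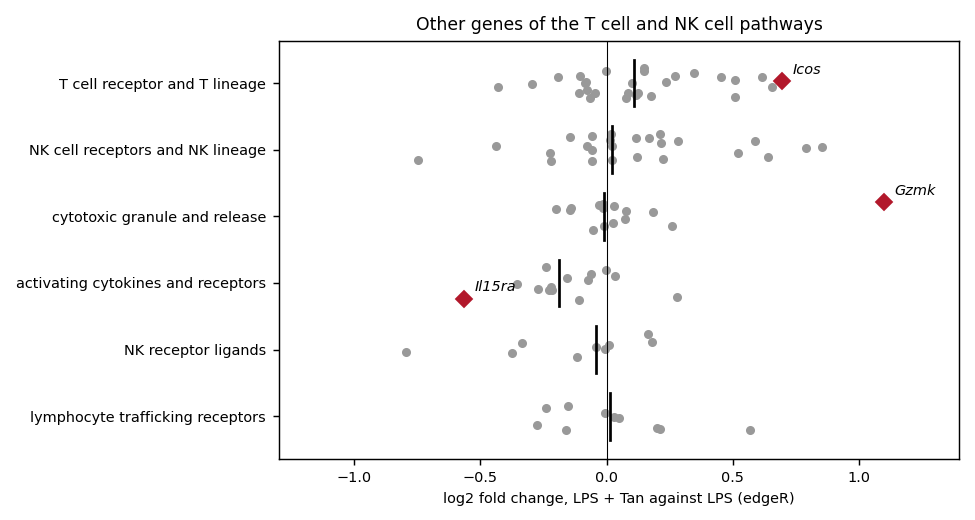
Fitted log2 fold change of LPS + Tan against LPS (x axis) for each tested gene of 6 lists around T cells and NK cells (y axis), with red diamonds for an unadjusted edgeR p below 0.05, grey points for the others and a black bar for the list's median; the vertical spread within a list is arbitrary. Icos and Gzmk lie to the right and Il15ra to the left, none of them with an adjusted p below 0.05.

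Of the 14 tested genes for activating cytokines, their receptors and their signalling, 12 had a log2 fold change below 0 and 2 above, with a median of -0.19. Among them 1 passed p below 0.05, near the 5.12% of all genes. Over all 15706 genes tested, 8135 log2 fold changes were above 0 and 7571 below, with a median of 0.01. Il15ra, the chain that presents IL-15 to NK and CD8 T cells, measured 22.1, 34.98, 30.2 and 34.8 CPM in the LPS samples and 13.7, 24.7, 21.4 and 22.8 CPM in the LPS + Tan samples. Of the LPS lungs 3 lay above all LPS + Tan lungs, and LPS 1 lay within their range. Il15ra had a log2 fold change of -0.56 ± 0.20 (SE) with an unadjusted edgeR p of 0.0166 (adjusted p = 0.924), with DESeq2 giving an adjusted p of 0.438. Il2ra, Il12rb1 and Il18, next by p, had log2 fold changes of -0.27, -0.35 and -0.24 (edgeR adjusted p = 0.930, 0.936 and 0.936).

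Ifng, the signature cytokine of activated NK and T cells, is given although it was picked after its values were seen. It measured 5.70, 3.55, 6.06 and 5.68 CPM in the LPS samples and 0.959, 1.42, 1.63 and 13.9 CPM in the LPS + Tan samples. Of the LPS + Tan lungs 3 were below every LPS lung and 1 was above all of them. Over all samples, Ifng had a log2 fold change of -0.23 ± 0.74 (SE) with an unadjusted edgeR p of 0.763 (adjusted p = 0.989). Without LPS + Tan 4 it was -1.97, with an unadjusted p of 5.1e-05 and an edgeR adjusted p of 0.0782, the lowest adjusted p of Ifng over the alternatives. LPS + Tan 4 did not stand out in Gzma, Gzmb, Prf1 or Ncr1, each of which was below its own mean over the 8 lungs there.

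None of the 9 tested NK receptor ligands and none of the 10 trafficking receptors passed p below 0.05 in edgeR or in DESeq2, where 5.12% and 6.16% of all genes did. The median log2 fold change was -0.04 for the ligands and 0.01 for the trafficking receptors. Among the ligands the lowest p belonged to H60c (log2 fold change -0.80), H2-T23 (-0.33), Cd48 (0.18) and Clec2d (0.16), with edgeR adjusted p = 0.924, 0.928, 0.940 and 0.963. H2-T23, the Qa-1 molecule read by the CD94 receptors, was at 813 ± 177 CPM with LPS and 645 ± 149 CPM with LPS + Tan (SD, n = 4). Among the trafficking receptors, Cxcr3 (0.57), Itga4 (-0.24) and Itgal (0.21) had edgeR adjusted p = 0.928, 0.936 and 0.961. Cxcr3, the receptor of activated T and NK cells for interferon-induced chemokines, was at 0.707 ± 0.0622 CPM with LPS and 1.05 ± 0.511 CPM with LPS + Tan. Its log2 fold change was 0.22 without LPS + Tan 2, and that of H60c was -1.42 without LPS + Tan 4, with an unadjusted p of 0.0021 and an edgeR adjusted p of 0.238.

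For other cells of the lung, few markers passed the test. In edgeR, none of the tested markers reached p below 0.05 for pan-leukocyte genes (3 tested), B cells (8), conventional dendritic cells (4), plasmacytoid dendritic cells (4), ILC2 (2), neutrophils (7), monocytes and macrophages (8), lung epithelium and endothelium (7) or erythroid cells (5), and 1 of 4 did for mast cells and basophils, the basophil protease Mcpt8 (log2 fold change -1.51, edgeR adjusted p = 0.924), where 5.12% of all genes reached it. Mcpt8 met the threshold of the study, 1 of these 4 markers against 0.649% of all genes. In DESeq2, 2 erythroid markers (Hbb-bs and Hbb-bt), 1 dendritic cell marker (Flt3) and Mcpt8 had p below 0.05, where 6.16% of all genes did. No listed marker was at 0 in all 8 samples. The B cell markers summed to 30.0 to 47.3 CPM with LPS and 25.4 to 37.6 CPM with LPS + Tan, the neutrophil markers to 4031 to 5326 and 3544 to 5263 CPM, the monocyte and macrophage markers to 1386 to 2314 and 1401 to 2416 CPM, and the erythroid markers to 1417 to 3420 and 1320 to 2156 CPM. Of the erythroid markers 5 of 5 had a log2 fold change below 0, and of the B cell markers 7 of 8 did, against 7571 of all 15706 genes tested.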

How the data were processed

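RNA-seq of 8 lung samples was used, 4 of the LPS group and 4 of the LPS + Tan group, grouped by the labels. The authors deposited a table of raw read counts per gene and a table of FPKM values for the same 24584 genes, with 0 columns of sample values left without a sample. The builds GRCm38 and mm10 come from the submitters' processing notes, whereas no source used here names the aligner, the annotation or the counter. The labels and the series text name different RNA and library kits.

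The main test of the counts used edgeR 4.0.16 under R 4.3.3 (filterByExpr, TMM scaling, quasi-likelihood test, no covariate), which kept 15706 genes, and p was adjusted by the Benjamini-Hochberg method over all of them. Each standard error was taken as the size of the log2 fold change over the root of F. CPM values were TMM-scaled. Correlations used log2 CPM and exact two-sided permutation tests. Alternatives were DESeq2 1.42.0, limma 3.58.1 on counts (voom) and on log2(FPKM + 1) and log2(FPKM + 0.1), other scalings and filters, a replicate block, and leaving out each sample. The correlation alternatives were chosen after seeing the data. The scripts were tested on simulated data.

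The genes and the 16 lists (173 of 181 entries in the tables) were chosen with earlier results of these data known. The genes named are the 10 members, Ptprc, the 4 of lowest p in each of the 6 lists around T and NK cells, and the 3 nearest in r to Cd3e, Ncr1 and Gzmb, except 1 gene that is not reported here. Ifng, Mcpt8, Klrb1a, Klrb1b, Klrd1, Klrk1, Klri2, Eomes, Hbb-bs, Hbb-bt, Flt3 and Cd40lg were named after their values were seen. Each depth was near that of the others, no pair of samples of a group was a repeated library (squared deviations were at least 9.16 times sampling noise), and 4 samples per group set the precision.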

Additional observations from a re-analysis of the deposited data

Results flagged for a closer look

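In 72 groups of 4 samples, 1 sample stood apart from the other 3 by Dixon's ratio (gap to the nearest sample over the group's range, above the 95% critical value) in 7 cases, where chance gives about 1 in 20 groups, or 3.6. Since 2 of the 7 are of Ifng, which was picked after its values were seen, the count without Ifng is 5 of 70 groups, against 3.5 by chance. Klrb1c in LPS 2 had a ratio of 0.870, at 6.74 CPM against 2.07 in the nearest LPS sample. Klrg1, another receptor of mature NK cells and effector T cells, had a ratio of 0.899 in the same sample, at 2.03 CPM against 0.997. Ifng had a ratio of 0.948 in LPS + Tan 4, at 13.9 CPM against 1.63, and of 0.847 in LPS 2, at 3.55 CPM against 5.68. Clec2d, a ligand of the inhibitory Klrb1 receptors, had a ratio of 0.907 in LPS + Tan 4, at 362 CPM against 230.0. Ptprc had a ratio of 0.852 in LPS 3, at 311 CPM against 264. Il12rb1, a chain of the IL-12 receptor, had a ratio of 0.830 in LPS 1, at 5.45 CPM against 8.56. Of the 7 cases, LPS 2 holds 3 and LPS + Tan 4 holds 2, and what set these lungs apart was not tested.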

How the results depend on the processing

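Over 18 alternatives and 10 members, 160 of 180 log2 fold changes kept their direction and their side of the 0.05 threshold, 19 turned sign and 1, that of Klrb1c without LPS 2, passed p below 0.05 (unadjusted edgeR p of 0.0316), and the lowest adjusted p was 0.638. Cd3e turned to 0.0064 with library totals alone, to 0.0083 with log2(FPKM + 1) and to 0.018 with log2(FPKM + 0.1). Leaving out each sample in turn gave log2 fold changes from -0.21 to 0.10 for Cd3e, -0.033 to 0.16 for Cd3d, 0.011 to 0.60 for Cd4, -0.26 to -0.013 for Cd8a, 0.23 to 1.51 for Klrb1c, -0.25 to 0.34 for Gzma, -0.45 to 0.11 for Gzmb, -0.23 to 0.43 for Prf1, -0.29 to 0.073 for Nkg7, -0.047 to 0.37 for Ncr1, -0.0068 to 0.31 for Ctsw, -0.040 to 0.24 for Clec2d, -0.026 to 0.18 for Ptprc and -1.97 to 0.11 for Ifng. Other named genes that moved by over 1.5 times kept their sign, from 0.56 to 1.14 for Cd244a, 0.30 to 1.01 for Klrg1, 0.37 to 1.09 for Klra4, 0.37 to 0.84 for Icos, 0.33 to 0.70 for Cd2, -1.42 to -0.56 for H60c, -0.48 to -0.21 for H2-T23, 0.091 to 0.30 for Cd48, 0.22 to 0.80 for Cxcr3, -0.37 to -0.11 for Itga4, 0.0057 to 0.33 for Itgal, -0.28 to -0.11 for Srgn, -0.33 to -0.057 for Serpinb9, -0.39 to -0.14 for Il2ra, -0.55 to -0.17 for Il12rb1 and -0.39 to -0.13 for Il18. It gave 0 to 1 members, 0 to 3 T cell genes, 0 to 1 NK cell genes and 1 to 2 granule genes at p below 0.05, and over all genes 480 to 1626 at p below 0.05, 0 to 1 at adjusted p below 0.05, and 75 to 238 at the threshold of the study (102 with all samples). Of T cell genes 2 passed without a filter, 3 with DESeq2 (2 among the genes tested in edgeR, and Cd40lg, which its filter removed), 3 with log2(FPKM + 1) and 4 with log2(FPKM + 0.1). Of NK cell genes 1 passed with library totals alone, 1 without a filter, 1 with DESeq2 and 1 with log2(FPKM + 0.1). Of granule genes 0 passed with a filter of 1 CPM in 4 samples, which removed Gzmk. Among the genes tested in edgeR, DESeq2 gave 6.16% a p below 0.05. The shares of all genes under these other settings are not given here, so those list counts cannot be set against them. At the threshold of the study 418 genes passed without a filter, 41 with the 1 CPM filter, 224 with DESeq2, 13 with log2(FPKM + 1) and 37 with log2(FPKM + 0.1), and DESeq2 called 34 genes at adjusted p below 0.05. The cause of these shifts was not tested beyond what each setting's own construction shows.

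The lowest r among the 5 killer genes, 0.881, stayed between 0.806 and 0.920 under library totals, both FPKM scales and leaving out each sample. Samples with the same replicate number did not deviate together (r = 0.12, -0.03, -0.15 and 0.02), and 0 of 4 LPS samples correlated best with their own number. With the replicate number as a block, 0 members, 1 T cell gene (Cd2, in place of Icos), 0 NK cell genes and 1 granule gene passed p below 0.05, and 826, 0 and 98 of all genes passed the 3 thresholds above. Icos then had an unadjusted edgeR p of 0.0906 and Cd244a one of 0.109. Depth limits Gzmk, Klrb1f and the other genes with few counts, whereas the granzymes had at least 1728 counts in each sample.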
